A study of Mus musculus with 14 samples.

Results

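The Mest imprinted domain on mouse chromosome 6 was described here by its H3K27me3, the trimethylated lysine 27 of histone H3, over 11 of 74458 peaks. Its members were the genes Mest, Copg2, Klf14, Cpa4 and Tsga13, and a peak was taken when it lay within 5 kb of the RefSeq body of any of these. The domain was selected on the measured H3K27me3 of the Hoxa deletion, where the level at Mest was low. Every value that sets the Hoxa deletion against the others is therefore given as a description. Where peaks are said to be called in that contrast, the call is a description too and no test of the domain. The libraries were Cut&Tag libraries, in which an antibody guides the transposase Tn5 to the mark so that adapters are inserted beside it. They came from mouse embryonic stem cells (mESCs) that were homozygous for a CRISPR deletion of the Hoxa cluster (3 libraries), of Wnt6 (2 libraries) or of Hmx1 (2 libraries). All lines derived from G4 mESCs, a hybrid of the 129/Sv and C57BL/6 strains, and were grown with LIF on CD1 feeder cells. The table had no column for unedited cells. Per the study each deletion was a clone, so that an effect of a deletion and a property of a clone cannot be told apart, and feeder cells were not separated by any label. No expression was measured in these libraries, so the cell type was not checked against marker genes.

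Genomic imprinting restricts expression to the allele of a single parent, and it is set by DNA methylation that the germ line leaves on some promoters. Mest, also called Peg1, encodes an enzyme of the alpha/beta hydrolase fold and is expressed from the paternal allele, while its promoter is methylated on the maternal allele. Copg2 encodes a coatomer subunit of vesicle coats and runs against Mest from the opposite strand. Klf14, an intronless gene for a Krüppel-like transcription factor, and Cpa4, a carboxypeptidase gene, are known to be expressed from the maternal allele in some tissues, and Tsga13 is a testis-specific gene. Polycomb repressive complex 2 writes H3K27me3, which covers CpG-rich promoters of silent genes in mESCs and can also sit on the silent allele of imprinted genes. The counts were not split by parental allele, so that each value below is the sum of both.

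The peaks that were low in the Hoxa deletion lay at and between the annotated start sites of Mest. The promoters there are shown because a pair of these peaks lies on them, and that of Copg2 because it carries the nearest strong peak. Both the promoters and the gene bodies were read from RefSeq tables of GRCm38.p6, the assembly of mm10. Each line gives the 250 bases before a start site, 5′ to 3′ on the strand of the gene, with CpG dinucleotides in capitals.

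Mest, upstream start site, chr6:30733256-30733505, plus strand: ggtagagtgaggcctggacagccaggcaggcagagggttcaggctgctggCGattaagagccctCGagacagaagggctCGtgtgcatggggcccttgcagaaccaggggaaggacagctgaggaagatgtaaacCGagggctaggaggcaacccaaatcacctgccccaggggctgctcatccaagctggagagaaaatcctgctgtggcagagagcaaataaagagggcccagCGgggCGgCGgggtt

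Mest, downstream start site, chr6:30737800-30738049, plus strand: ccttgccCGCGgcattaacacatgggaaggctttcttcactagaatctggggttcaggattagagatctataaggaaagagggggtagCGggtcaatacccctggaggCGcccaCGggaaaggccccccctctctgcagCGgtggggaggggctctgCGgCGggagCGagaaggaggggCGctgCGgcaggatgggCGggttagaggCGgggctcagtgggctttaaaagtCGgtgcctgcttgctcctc

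Copg2, chr6:30896795-30897044, minus strand: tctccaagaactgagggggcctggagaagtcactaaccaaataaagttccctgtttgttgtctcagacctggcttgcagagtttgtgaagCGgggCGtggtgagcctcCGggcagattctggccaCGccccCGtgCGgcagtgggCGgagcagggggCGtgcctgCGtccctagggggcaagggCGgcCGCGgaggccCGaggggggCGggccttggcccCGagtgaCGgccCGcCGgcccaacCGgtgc

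The upstream Mest promoter held 7 CpGs, more than 53.7% of 32851 mouse promoters of the same length, and lay inside Mest peak 1. The downstream Mest promoter held 14 CpGs, more than 70.6% of promoters, and overlapped Mest peak 4. It also held 2 matches to TGCCGC or its reverse complement GCGGCA, the core of the motif read by ZFP57, a zinc finger protein that keeps imprinted methylation. At least 2 such matches were present in 0.870% of promoters and at least 1 in 8.68%. These shares are over all promoters, whose median was 6 CpGs. The hexamer itself holds a CpG, and no share among promoters of like CpG content was taken. The upstream Mest promoter had 0 matches, and the Copg2 promoter, with 19 CpGs, had 1. The promoters of Cpa4 and Tsga13 held 2 and 1 CpGs and overlapped no peak. A promoter sequence was matched for 4 of the 5 genes, all but Klf14. These matches are descriptions of letters, and DNA methylation was not measured.

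Library totals over the peaks ran from 6016500 to 36563541 counts. In each library the peaks at its own deleted genes kept at most 3.18% of the level in the other deletions, so that every label was borne out. Of the 74458 peaks, 17 were too weak to test, and all 11 peaks of the domain were tested. Levels are counts scaled to a common library size with TMM factors (CPM) and are comparable between libraries at a given peak.

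At Mest, H3K27me3 in the Hoxa deletion was 10.5% of its level in the other 4 libraries. Summed over the 4 Mest peaks, it was 5.99, 5.85 and 4.58 CPM in Hoxa replicates 1 to 3, 46.3 and 46.8 CPM in the Wnt6 deletion, and 58.3 and 57.8 CPM in the Hmx1 deletion. In such bulk libraries, fewer cells with the mark and less of it per cell cannot be told apart. The 3 Hoxa libraries lay far below the other 4, with means of 5.47 ± 0.780 (SD, n = 3), 46.6 ± 0.382 (SD, n = 2) and 58.0 ± 0.387 CPM (SD, n = 2). All 4 Mest peaks met the rule used for a call, a log2 fold change beyond 1 and an adjusted p under 0.05 in edgeR, and all were lower. Over all tested peaks 0.983% were called lower and 0.566% higher in this contrast. Since it is the contrast that chose the domain, nothing is read from these counts.

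**Figure D1:**
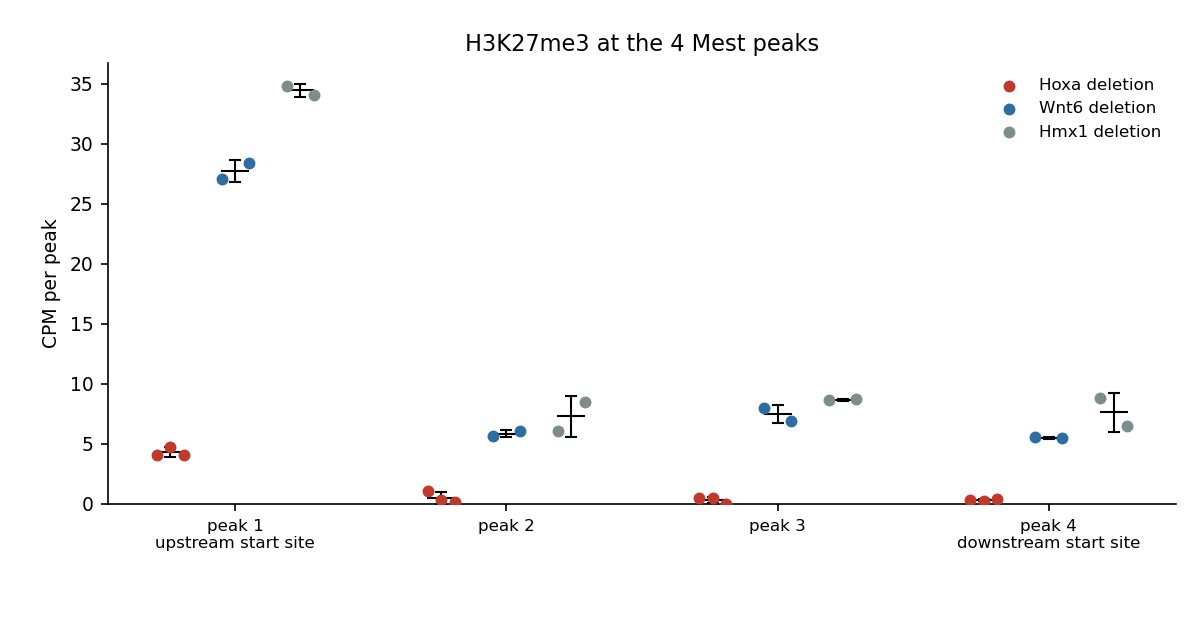
H3K27me3 level (CPM, vertical axis) at each of the 4 Mest peaks (horizontal axis) in the 7 libraries, as points, with the mean and SD of each deletion as bars. The Hoxa points lie below all other points at each peak, and peak 1 is the strongest in every library.

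Mest peak 1, chr6:30732605-30733663, spans the upstream start site printed above and was the strongest of the 4. Its level was 4.11, 4.78 and 4.06 CPM in the Hoxa libraries, 27.1 and 28.4 in the Wnt6 libraries and 34.8 and 34.1 in the Hmx1 libraries. The Hoxa mean was 13.9% of the mean of the other 4, a log2 fold change of -2.82 with a standard error (SE) of 0.144. The groups did not overlap, and the Wnt6 pair also lay below the Hmx1 pair.

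Mest peak 2, chr6:30735369-30735921, lies within the body of Mest. It had 1.06, 0.344 and 0.129 CPM in the Hoxa libraries, 5.66 and 6.06 in the Wnt6 libraries and 6.09 and 8.50 in the Hmx1 libraries. The Hoxa mean was 7.76% of the others (log2 fold change -4.02, SE 0.321). Without Hoxa replicate 1 it was 3.59% (log2 fold change -4.65). These Hoxa values rest on 9, 9 and 2 counts, and their spread was wide relative to their mean.

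Mest peak 3, chr6:30736885-30737210, had the lowest mean share, which rests on replicate 3. It had 0.470, 0.497 and 0 CPM in the Hoxa libraries, against 8.03 and 6.95 in the Wnt6 libraries and 8.62 and 8.74 in the Hmx1 libraries. In Hoxa replicate 3, 0 counts were found, which allows a level of up to 0.193 CPM (3 counts). The Hoxa mean was 3.99% of the others (log2 fold change -4.55, SE 0.317), and this fold depends on the treatment of that 0: it was -4.01 without replicate 3 and -5.51 without replicate 2. Without replicate 3, Mest peak 4 had the lower value, at -4.56.

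Mest peak 4, chr6:30737972-30738351, holds the downstream start site with the CpG-rich promoter. The Hoxa libraries had 0.353, 0.229 and 0.387 CPM, from 3, 6 and 6 counts, the Wnt6 libraries 5.56 and 5.46 and the Hmx1 libraries 8.79 and 6.45. The Hoxa mean was 4.92% of the others (log2 fold change -4.36, SE 0.319), and every Hoxa library was below every other.

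Per kb of peak, the Hoxa levels at Mest peaks 2, 3 and 4 were 0.924, 0.992 and 0.852 CPM, below all but 0.0699%, 0.0766% and 0.0672% of tested peaks. This ranking does not leave out the peaks at the deleted Hoxa genes, of which there were 42. Mest peak 1 kept 4.08 CPM per kb, at percentile 10.9 of the Hoxa levels. In the other deletions the 4 peaks stood at percentiles 89.0, 70.1, 86.7 and 80.5, so that Mest there was above the middle of the peak list throughout. The percentage of the other libraries' level that was left at peak 1 was alike in the 3 Hoxa libraries, at 13.2%, 15.4% and 13.1%. At peak 2 it was 16.1%, 5.23% and 1.96%, at peak 3 5.82%, 6.15% and 0%, and at peak 4 5.37%, 3.49% and 5.89%. Peak 1 therefore kept a larger share than peaks 3 and 4 in each Hoxa library, but not larger than peak 2 in replicate 1.

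The contrast was also split by the control. Against the Wnt6 deletion alone the log2 fold changes of the 4 peaks were -2.66, -3.84, -4.44 and -4.16, and against the Hmx1 deletion alone -2.97, -4.20, -4.67 and -4.57. Both use the same Hoxa libraries and are not independent of each other.

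The low stretch was then mapped as the consecutive peaks in which every Hoxa library was below every other library and the Hoxa mean was under 50% of the others. It held exactly the 4 Mest peaks, from 30732605 to 30738351, a span of 5.746 kb that begins just upstream of the annotated gene body (30733506 to 30748466) and ends within it. Over all tested peaks 1.25% met this rule. The stretch lies 21.417 Mb from the nearest Hoxa gene. On the left, the next tested peak was 10.996 kb away at chr6:30721378-30721609, with Cep41 as the nearest gene. It had 1.65, 1.15 and 0.902 CPM in the Hoxa libraries, 1.03 and 1.78 in the Wnt6 libraries and 0.845 and 1.02 in the Hmx1 libraries, so that the Hoxa mean was 105% of the others and the groups overlapped. The peak beyond it, chr6:30719855-30720443, stood at 67.4% (log2 fold change -0.51, SE 0.278), again with overlapping groups. On the right, the next tested peak was 66.328 kb away within Copg2, at 139%. The rest of the Mest body, including the miR-335 gene at 30741299 to 30741396 in an intron of Mest, held no peak, so the edges are known only to within these gaps, and the stretch could span up to 83.07 kb. Among the 59 peaks within 500 kb of Mest, the 4 were the only low ones.

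**Figure D2:**
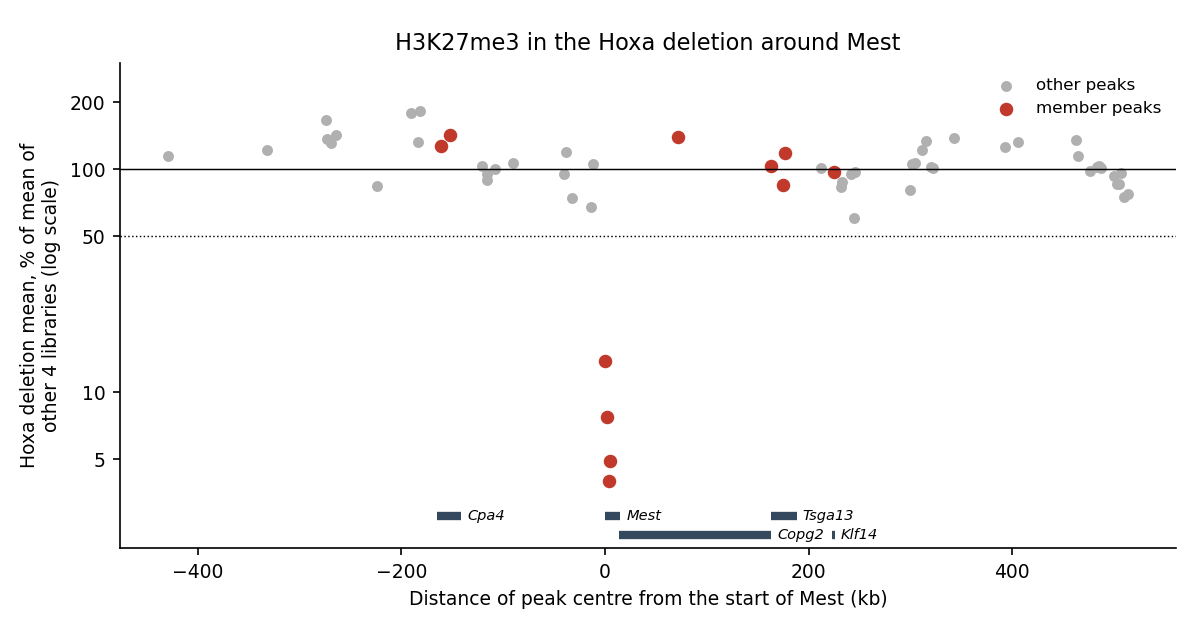
Mean H3K27me3 level of the 3 Hoxa libraries as a percentage of the mean of the other 4 libraries (vertical axis, log scale) against the distance of the peak centre from the start of Mest (horizontal axis, kb), for the 59 peaks within 500 kb. Red points are the 11 peaks of the domain, bars mark the gene bodies, and the lines mark 100% and 50%. The 4 Mest peaks lie between 3.99% and 13.9%, and no other peak is under 50%.

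Runs of at least 4 consecutive low peaks were found 17 times in the genome. On chromosome 6 there were 2, the one at Mest and a run over the deleted Hoxa genes, and the other 15 were on chromosome 8. Over chromosome 6 outside the Hoxa genes the median log2 fold change was 0.02, and over all tested peaks it was -0.01.

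Beyond Mest, the 7 other peaks of the domain had log2 fold changes between -0.23 and 0.47 in the Hoxa deletion, with a median of 0.25, and none was called. At 1 of the 7 the Hoxa libraries and the others did not overlap, where 18.3% of all tested peaks were without overlap in either direction. All of them lay in a gene body, none between a body and the 5 kb limit. The peaks just outside the limit lay 5.898 and 6.991 kb from Klf14, at 83.6% and 87.7% of the others.

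Copg2 held 2 peaks. The one at its start site, chr6:30896221-30896979, had 12.1, 13.1 and 12.8 CPM in the Hoxa libraries, 11.4 and 11.8 in the Wnt6 libraries and 14.0 and 12.0 in the Hmx1 libraries. These groups overlapped, and the Hoxa mean was 103% of the others (log2 fold change 0.07, SE 0.134). It also lies 2 bp from Tsga13, and so counts for both genes. This promoter is richer in CpG than either Mest promoter and stood at percentile 79.4 per kb in the Hoxa deletion and 79.0 in the others. The weak peak in the Copg2 body, chr6:30804679-30805032, ran from 1.76 to 2.45 CPM in the Hoxa libraries and from 0.926 to 2.53 in the others (log2 fold change 0.35, SE 0.295).

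Klf14 carried by far the strongest peak of the domain, chr6:30957361-30959190, which covers part of the gene. Its level was 181, 159 and 167 CPM in the Hoxa libraries, 175 and 159 in the Wnt6 libraries and 184 and 177 in the Hmx1 libraries. The groups overlapped, with the Hoxa mean at 97.2% of the others (log2 fold change -0.04, SE 0.0759). Per kb it was 92.3 CPM in the Hoxa deletion and 95.0 CPM in the others, at percentiles 99.5 and 99.4.

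Cpa4 had 2 peaks in its body, both somewhat higher in the Hoxa deletion. That at chr6:30572509-30573213 had 5.41, 6.19 and 5.80 CPM in the Hoxa libraries, 4.84 and 4.10 in the Wnt6 libraries and 4.56 and 4.68 in the Hmx1 libraries. It is the peak without overlap, at 128% of the others (log2 fold change 0.38, SE 0.180). The other, chr6:30580880-30581379, ran from 1.61 to 4.00 CPM in the Hoxa libraries and from 1.50 to 2.47 in the rest, and its log2 fold change of 0.47 had an SE of 0.282.

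Besides the shared peak, Tsga13 had 2 weak peaks in its body. At chr6:30907995-30908286 the Hoxa libraries had 0.823 to 1.60 CPM and the others 1.13 to 2.06 CPM (log2 fold change -0.23, SE 0.344). At chr6:30909591-30909997 they had 1.29 to 2.48 CPM against 1.35 to 2.37 CPM (log2 fold change 0.25, SE 0.303). The groups overlapped at both, and the SE was as large as the difference.

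**Figure D3:**
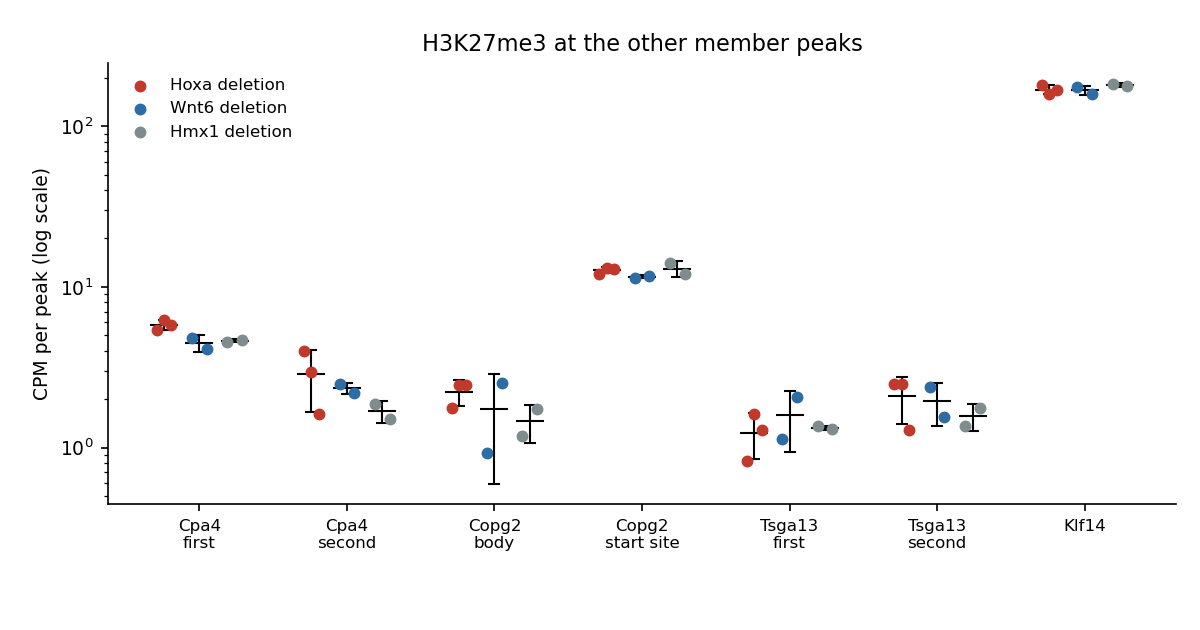
H3K27me3 level (CPM, log scale, vertical axis) at the 7 peaks of the domain outside the low stretch in the 7 libraries, as points, with the mean and SD of each deletion as bars. Klf14 lies between 159 and 184 CPM in all libraries, and only at the first Cpa4 peak are the Hoxa points all above the others.

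Genes around the domain were described from a list of 20, from Nrf1 to Exoc4. Of these, 19 were in the gene table and 16 had a peak within 5 kb. Apart from 2 Mest peaks also within 5 kb of the miR-335 gene, their 50 peaks gave 0 called lower and 0 called higher. Over all tested peaks 0.983% were called lower and 0.566% higher. Such shares leave few calls to be found among 50 peaks, so nothing is read from these counts. The median log2 fold change of the 50 was -0.09. The lowest value, -0.88, was at Plxna4, a semaphorin co-receptor gene with 22 peaks and a median of -0.40.

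The Wnt6 and Hmx1 deletions hold no Hoxa library, and their difference was the only one at these peaks that the choice of the domain did not use. The spread was estimated from all 7 libraries, so the Hoxa libraries do enter the SEs and p-values. Tested with edgeR's quasi-likelihood fit of the whole table, 0 of the 11 peaks were called, and 1 had an unadjusted p under 0.05. Of all tested peaks 0.0887% were called and 5.66% had such a p. DESeq2 gave an adjusted p for only 3 of the 11, Mest peak 1, the Copg2 start site and Klf14, and called 0 of these 3. For the other 8 it gave none. The 4 Mest peaks were each lower in the Wnt6 deletion, with log2 differences of -0.31 (SE 0.141), -0.36 (SE 0.265), -0.23 (SE 0.253) and -0.42 (SE 0.259). Mest peak 1 gave the p under 0.05, with an unadjusted p of 0.0339 and an adjusted p of 0.865 by edgeR. The adjusted p-values of the other 3 were 0.932, 0.958 and 0.911. At Klf14 the difference was -0.11 (SE 0.0964), and at the Copg2 start site -0.13 (SE 0.175). The weaker peaks of Cpa4, Tsga13 and the Copg2 body lay between -0.09 and 0.52 with SEs from 0.249 to 0.455. Over the domain 7 peaks were lower and 4 higher in the Wnt6 deletion, and the edgeR adjusted p-values lay between 0.865 and 0.990. With 2 libraries in each group and a median SE of 0.259, moderate differences could not be resolved. The labels do not say that replicates are separate cultures, so these p-values measure only the spread between libraries, which may be technical. In a fit of only the Wnt6 and Hmx1 libraries the SEs at the 4 Mest peaks were 0.140, 0.219, 0.208 and 0.229. At every other peak of the domain the SE was larger in that fit, and 0 of the 11 peaks were called.

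**Figure D4:**
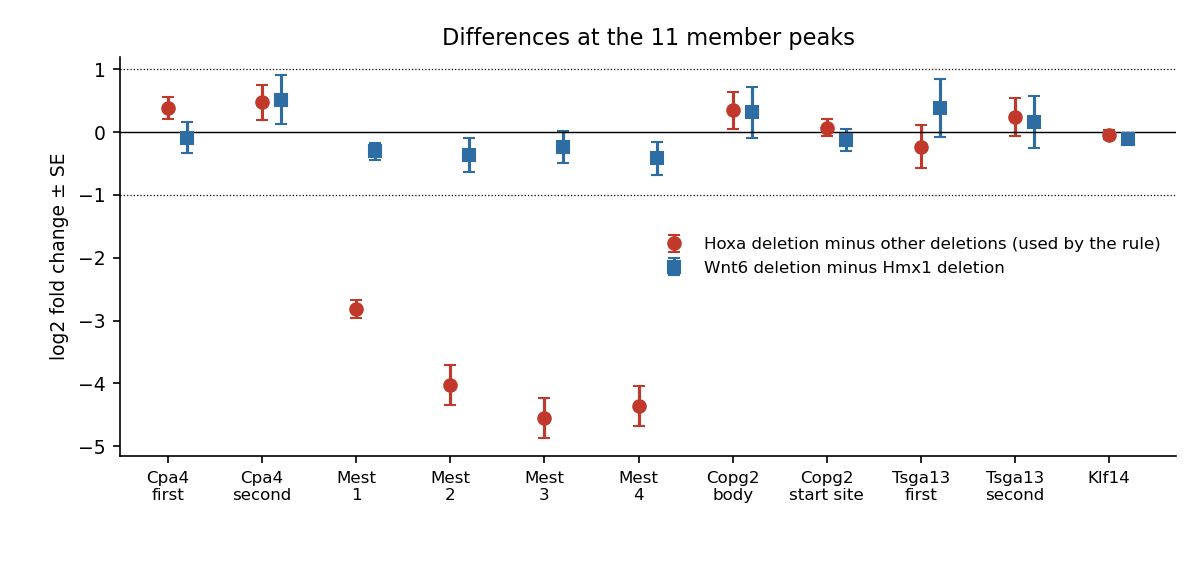
Log2 fold change with its SE (vertical axis) at the 11 peaks of the domain in chromosomal order (horizontal axis), for the Hoxa deletion minus the other deletions (circles) and the Wnt6 deletion minus the Hmx1 deletion (squares). Circles at the 4 Mest peaks lie between -4.55 and -2.82, while all squares lie between -0.42 and 0.52, and dotted lines mark 1 and -1.

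Peaks on other chromosomes were ranked by likeness to Mest peak 3, as the root mean square (RMS) difference of log2 CPM over the 7 libraries, each peak being centred on its own mean. The other Mest peaks differed from it by 0.652 (peak 2), 0.941 (peak 4) and 1.14 (peak 1). The nearest elsewhere was chr7:142580077-142580687, with H19 as its nearest gene, an imprinted non-coding RNA expressed from the maternal allele (RMS 0.716). It had 1.29, 0.802 and 0.580 CPM in the Hoxa libraries, 13.1 and 11.3 in the Wnt6 libraries and 12.3 and 13.7 in the Hmx1 libraries, which put the Hoxa mean at 7.08% of the others. Next came chr7:6131781-6133471 in Zfp787, a zinc finger gene (0.828, at 3.37%), and chr15:72809218-72809605 in Peg13 and Trappc9 (0.848, at 6.23%). Peg13 is an imprinted non-coding RNA within the Trappc9 gene. Another peak at H19, chr7:142577642-142578872 (1.02, at 10.3%), and a peak in the cadherin gene Cdh11, chr8:102711109-102711461 (1.23, at 18.3%), completed the 5. The Cdh11 peak lies on the chromosome that held most of the low runs. These peaks were found by searching for the pattern, and their values are a description.

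**Figure D5:**
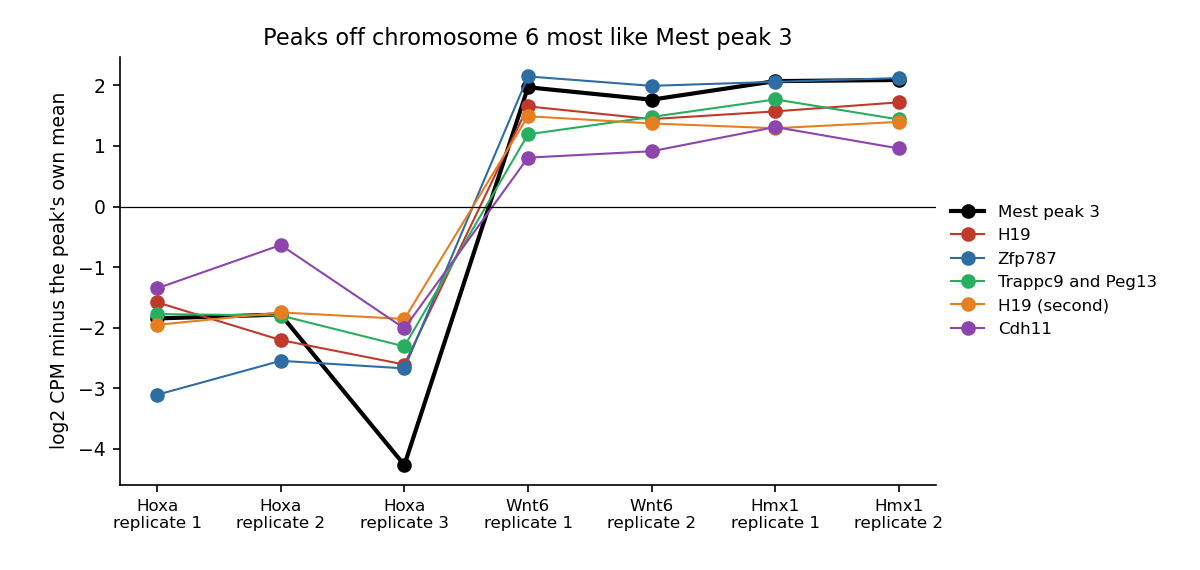
Log2 CPM minus the peak's own mean over the 7 libraries (vertical axis) in each library (horizontal axis), for Mest peak 3 and the 5 peaks off chromosome 6 most like it, with lines joining the values of a peak. All 6 peaks are below their mean in the 3 Hoxa libraries and above it in the other 4, and the lowest Mest point is the library with 0 counts.

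Imprinted genes outside the domain were described from a pair of lists. Of 19 genes tied to germline methylation of the maternal allele, 17 had peaks, 75 in all, of which 2 were called lower and 2 higher in the Hoxa deletion, beside 0.983% and 0.566% of all tested peaks, with a median log2 fold change of 0.03. The lower peaks were both peaks of Peg13 (-4.22 and -3.93), and the higher ones were at Nap1l5 (1.43) and Kcnq1ot1 (1.71). Of the 75 peaks, 1 was called between the Wnt6 and Hmx1 deletions, beside 0.0887% of all tested peaks. Like Mest, Nap1l5 lies on chromosome 6, and so do Peg10 and Sgce, an imprinted pair that had 0 called. Of 6 genes tied to methylation of the paternal allele, all had peaks, 50 in all, of which 3 were called lower and 0 higher, against the same 0.983% and 0.566%, with a median of -0.07. The 3 were among the 4 peaks at H19. As these lists were written with the low levels at Mest, H19 and Peg13 known, their counts are no independent evidence.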

How the data were processed

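H3K27me3 Cut&Tag counts of 7 libraries from 3 deletion lines were used. The authors counted over a shared peak list and deposited raw counts, without normalization. The submitters' processing notes name Trimmomatic, Bowtie2, SAMtools, Picard, MACS2, deepTools and the build mm10. How the peak list was made, whether duplicates were removed and whether reads or fragments were counted is not given in the sources used here, and the convention for peak starts is not stated. The 7 IgG libraries were not analysed here, so no background was subtracted.

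Software was edgeR 4.0.16, DESeq2 1.42.0 and limma 3.58.1 under R 4.3.3, and Python 3.11.15 with pandas 2.3.3 and matplotlib 3.10.9. The filter filterByExpr, by genotype, left 74441 of 74458 peaks, and libraries were scaled by TMM factors. Contrasts were fitted with glmQLFit and glmQLFTest over all tested peaks, with Benjamini-Hochberg adjustment. A call needed an absolute log2 fold change over 1 and an adjusted p under 0.05. Log2 CPM used a prior count of 2. The limit for a count of 0 is 3 counts and covers counting error only. The 5 genes, the other gene lists and the rules for named peaks were chosen with earlier results of these data known. Named peaks were all 11 peaks of the domain, the 2 on each side of the low stretch, those nearest the 5 kb limit and the 5 most like Mest peak 3 off chromosome 6. The fits were tested on simulated data. Alternatives were other tools, scaling, filters, windows and controls, a block by replicate number, and each library left out.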

Additional observations from a re-analysis of the deposited data

How the results depend on the processing

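Of 374 alternative values, 4 reversed in the contrast that was tested, and 11 outside it moved beyond the error of the value. The other 359 were counted as unchanged. Within the tested contrast only a change of sign or of call was counted, so some of the 359 moved beyond their SE. Without Hmx1 replicate 2, Mest peak 2 went from -0.36 (SE 0.265) to -0.05, and Mest peak 4 from -0.42 (SE 0.259) to -0.68. Among the 359 were also 3 Hoxa differences near 0 that turned sign within their SE. At Klf14 they became 0.017 (against the Wnt6 deletion alone) and 0.0019 (without Hoxa replicate 2). At Tsga13 30907995 the difference became 0.054 (without Wnt6 replicate 2). The 4 Mest peaks were called lower under every alternative fit, with log2 fold changes between -5.51 and -2.66, and no other peak of the domain was called. As the domain was chosen on these values, this is no sign of stability. The summed Mest level in the Hoxa deletion was 10.5% of the others, between 9.93% and 11.3% with a library left out, and 14.98% with a window of 20 kb, which takes in peaks beside the low stretch. Same-numbered libraries had correlations of deviations between -0.04 and 0.08. With 2 libraries in a group the deviations mirror each other, so this check cannot show that replicate numbers do not pair the samples. In each deletion replicate 1 had the smallest total count and replicate 2 the largest. With a replicate block the Hoxa log2 fold changes at Mest peaks 2 and 3 were -3.63 and -4.00, against -4.02 and -4.55 without it. In that fit Hoxa replicate 3 has no partner and adds nothing to the contrast. The counts of 4 and 0 called peaks did not change. Without Hoxa replicate 1 the log2 fold change at Mest peak 2 was -4.65. For the Wnt6 deletion against the Hmx1 deletion, Mest differences lay between -0.68 and -0.05, with a lowest edgeR adjusted p of 0.579. All 3 values come from the fit without Hmx1 replicate 2, in which the lone Hmx1 library is assumed to vary like the other groups. DESeq2 gave an adjusted p at 1 Mest peak. Signs turned at weak peaks when a Wnt6 library was left out: without replicate 1 at Tsga13 30909591 (-0.088), and without replicate 2 at Cpa4 30572509 (0.059), Copg2 30804679 (-0.75) and Tsga13 30907995 (-0.22). With each library left out in turn, these 4 differences ranged from -0.088 to 0.53, from -0.18 to 0.059, from -0.75 to 0.72 and from -0.22 to 0.65. The causes were not tested. Few counts at the low Mest peaks limit their shares, and the sparse peak list limits the edges of the stretch.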
